A study of Mus musculus with 6 samples.

Results

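The genes described here encode metalloproteases that cut the extracellular matrix or shed proteins from the cell surface, and the inhibitors that hold them in check. They are Adamts1, Adamts5, Mmp2, Mmp14, Adam9, Adam10, Adam17, Timp1, Timp2 and Timp3, 10 genes of the 53465 in the count table, matched by symbol in the GENCODE M21 annotation of the mouse build mm10. They were chosen by gene family and selected on the KO against WT counts of these same libraries, whose values were known, so for these 10 genes that comparison is a description and not a test.

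RNA was sequenced from ID8 cells, a tumour-forming line that derives from the mouse ovarian surface, in 3 libraries labelled KO and 3 labelled WT, numbered 4 to 6 in each group. KO was taken as the ID8 line stably carrying a guide against Nat10 (sgNat10), and WT as the ID8 line stably carrying a control guide (sgNC). NAT10 is the enzyme that acetylates cytidine in RNA, and the study asked what its loss does to transcripts of the DNA damage response. The labels do not say whether a line is a clone or a pool, or whether the 3 libraries of a group come from separate cultures, so the spread between them may be technical. Guide and line cannot be told apart.

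Total counts were 2234305 to 3126208 in the KO libraries and 1687466 to 2148715 in the WT libraries. Levels are given as CPM, the usual read count relative to library size, on sizes scaled by TMM, edgeR's correction for library composition, which makes 1 count worth 0.310 to 0.428 CPM in KO and 0.49967 to 0.608 CPM in WT. Nat10, the gene the guide targets, stood at 123, 56.9 and 138 CPM in KO libraries, against 102, 64.0 and 169 CPM in WT libraries, and was not lower in KO, so each direction below is that of the labels KO and WT. Markers of ovarian surface and mesothelial cells were counted for 9 of 9 listed genes, Krt7 and Lrrn4 in WT libraries only. They summed to 4682 to 5337 CPM in KO and 6225 to 6670 CPM in WT. Krt19 alone had a mean of 2223 CPM in KO and 4202 CPM in WT. Of these markers 7 were tested, with 3 estimates above 0 and 4 below. Among them edgeR called 3, Msln higher and Krt18 and Krt19 lower in KO, against 0.402% of all tested genes. The part of this shift in the results below was not tested. In such bulk RNA fewer cells of a type and less RNA per cell cannot be told apart. The fibroblast list summed to 5.85 to 33.2 CPM in KO and 42.8 to 85.4 CPM in WT, where Col1a1 made up most of it, while in KO replicate 6 most came from Col3a1, counted in that library alone. The immune list reached at most 1.55 CPM in KO and 14.5 CPM in WT, the endothelial list at most 1.86 CPM in KO and 5.996 CPM in WT, and the granulosa markers Foxl2, Fshr, Amh and Cyp19a1 had no count.

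ADAMTS proteases are secreted, carry thrombospondin repeats that anchor them in the matrix, and cut proteoglycans such as versican and aggrecan. In the mouse ovary ADAMTS1 is known for its part in ovulation. MMPs cut collagens, laminins and fibronectin, and ADAMs sit in the cell membrane and release the outer part of growth factors, receptors and adhesion proteins. TIMPs block these enzymes by inserting their first residues into the active site, each with its own range of targets.

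The proteases share 1 active site design, in which a zinc ion is held by 3 histidines in a short conserved stretch. The coding bases of that stretch are shown for the 7 proteases, read from GENCODE M21 transcripts, 33 bases each on the coding strand. Each stretch was found by a search for the 3 histidine codons and the glutamate codon after the first. The likeness of these codons was therefore set by the search. Capitals mark the 3 histidine codons.
Adamts1: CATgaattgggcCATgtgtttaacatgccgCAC
Adamts5: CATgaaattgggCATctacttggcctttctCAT
Mmp2: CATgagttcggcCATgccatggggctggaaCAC
Mmp14: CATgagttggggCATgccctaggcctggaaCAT
Adam9: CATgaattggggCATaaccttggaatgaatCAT
Adam10: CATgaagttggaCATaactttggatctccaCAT
Adam17: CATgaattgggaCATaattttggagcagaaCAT
The eighth codon is a glycine codon in 6 of the 7 genes, and Adamts1 has aac there. The Adamts1 stretch is split between exons 3 and 4 of its 9 exons, that of Adamts5 between exons 2 and 3 of 8, and that of Adam10 between exons 9 and 10 of 16. Adamts1 and Adamts5 share 20 of 33 bases, Mmp2 and Mmp14 share 27, and Adam10 and Adam17 share 26. Pairs from different families share from 18 (Adamts5 and Mmp2, Mmp2 and Adam10) to 25 (Mmp14 and Adam9), a range that holds the ADAMTS pair. On the inhibitor side, the start of the mature TIMP chain is shown over 27 coding bases, because its first cysteine is the residue that reaches the zinc ion. Capitals mark the codons of the first and the second cysteine.
Timp1: TGTagcTGTgccccaccccacccacag
Timp2: TGCagcTGCtccccggtgcacccgcaa
Timp3: TGCacaTGCtctcccagccatccccag
Timp1 and Timp2 are identical at 18 of these 27 bases, Timp1 and Timp3 at 16, and Timp2 and Timp3 at 17. The TIMP stretches were found by a search for a fixed pattern of cysteine, proline, histidine and glutamine codons. Much of this identity was therefore set by the search, and no likeness is read from it.

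Of the 10 genes, 8 passed the filter on low counts and 2 did not (Adamts5 and Mmp2). In edgeR's quasi-likelihood fit over 8200 genes with Benjamini-Hochberg adjustment at 0.05, 1 of the 8 was called, Adamts1, which rose in KO, while 0.402% of all tested genes were called in either direction and 0.183% higher in KO. Groups did not overlap for 2 of the 8, Adamts1 and Timp1, both higher in KO, against 6.94% of all tested genes higher in KO without overlap. Estimates were above 0 for 6 and below 0 for 2, and their median log2 fold change was 0.49, where that of all tested genes was -0.02. These counts describe genes chosen with this comparison known, and nothing is read from them.

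Adamts1, the secreted protease that trims versican, had 549, 358 and 557 CPM in KO replicates 4, 5 and 6, against 73.0, 76.0 and 99.4 CPM in WT replicates 4, 5 and 6. Every KO library lay above every WT library, with the lowest KO value still 3.6 times the highest WT value. Its KO over WT estimate was 2.56 ± 0.29 (log2, SE; 95% interval 1.93 to 3.18), and this ran from 2.45 to 2.75 with 1 library left out. By the size of that estimate Adamts1 stood at place 126 of the 8200 tested genes, counted from the most raised.

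Adamts5, an aggrecan-cutting protease of cartilage in the mouse, had 42, 1 and 11 counts in KO libraries and no count in any WT library. The KO counts rested mainly on replicate 4. If 3 counts are allowed to the WT group as a whole, Adamts5 was at least 11.9-fold higher in KO, a bound for counting error alone, as amplified reads need not stem from separate molecules. Without KO replicate 4 the bound was 3.87-fold.

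Adamts1 and Adamts5 are next to each other on chromosome 16, both on the minus strand, Adamts1 from 85793827 to 85803113 and Adamts5 from 85856173 to 85901828. The nearest protein-coding gene below Adamts1 is Cyyr1, which had no count in any library. Beyond it lies App, the amyloid precursor, at 572, 703 and 611 CPM in KO libraries and 745, 625 and 503 CPM in WT libraries, with a log2 fold change of 0.01 ± 0.21 (SE). The nearest protein-coding gene above Adamts5 is N6amt1, a methyltransferase, at 28.1, 20.1 and 54.3 CPM in KO libraries and 26.8, 20.5 and 16.8 CPM in WT libraries. Next to N6amt1, Ltn1 of ribosome quality control had a log2 fold change of 0.41 ± 0.39 (SE). App, N6amt1 and Ltn1 each had overlapping groups, and none passed in edgeR.

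The promoter of Adamts1 is shown because this gene was the called member. The RefSeq window of 300 bases around its start (GRCm38.p6, chr16:85803064-85803363, minus strand) has a GC content of 64.7%. Capitals mark the single motif match found.
Adamts1: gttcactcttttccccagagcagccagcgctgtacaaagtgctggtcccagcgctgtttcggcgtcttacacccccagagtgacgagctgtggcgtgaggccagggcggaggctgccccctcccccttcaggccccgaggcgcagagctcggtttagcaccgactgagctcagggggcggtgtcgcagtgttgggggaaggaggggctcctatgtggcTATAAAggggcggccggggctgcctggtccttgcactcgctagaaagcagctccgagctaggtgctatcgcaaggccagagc
Searched on both strands were AP-1 (TGANTCA), TEAD (GGAATG), the cyclic AMP element (TGACGTCA), SMAD (GTCTAGAC) and the TATA box (TATAAA). The Adamts1 window holds the TATA box at position -32 from the start, a motif present in 13.6% of the 32851 RefSeq promoter windows of this length. RefSeq windows were matched for Adamts1, Mmp14, Adam10, Adam17, Timp1, Timp2 and Timp3, and apart from Adamts1 the match was 1, a TEAD motif at -247 in Timp1, where 14.7% of all windows hold one. AP-1, the cyclic AMP element and SMAD are in 7.81%, 1.79% and 0.213% of all windows and matched none of the 7. A match or its absence in these letters says nothing of what binds there.

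**Figure D1:**
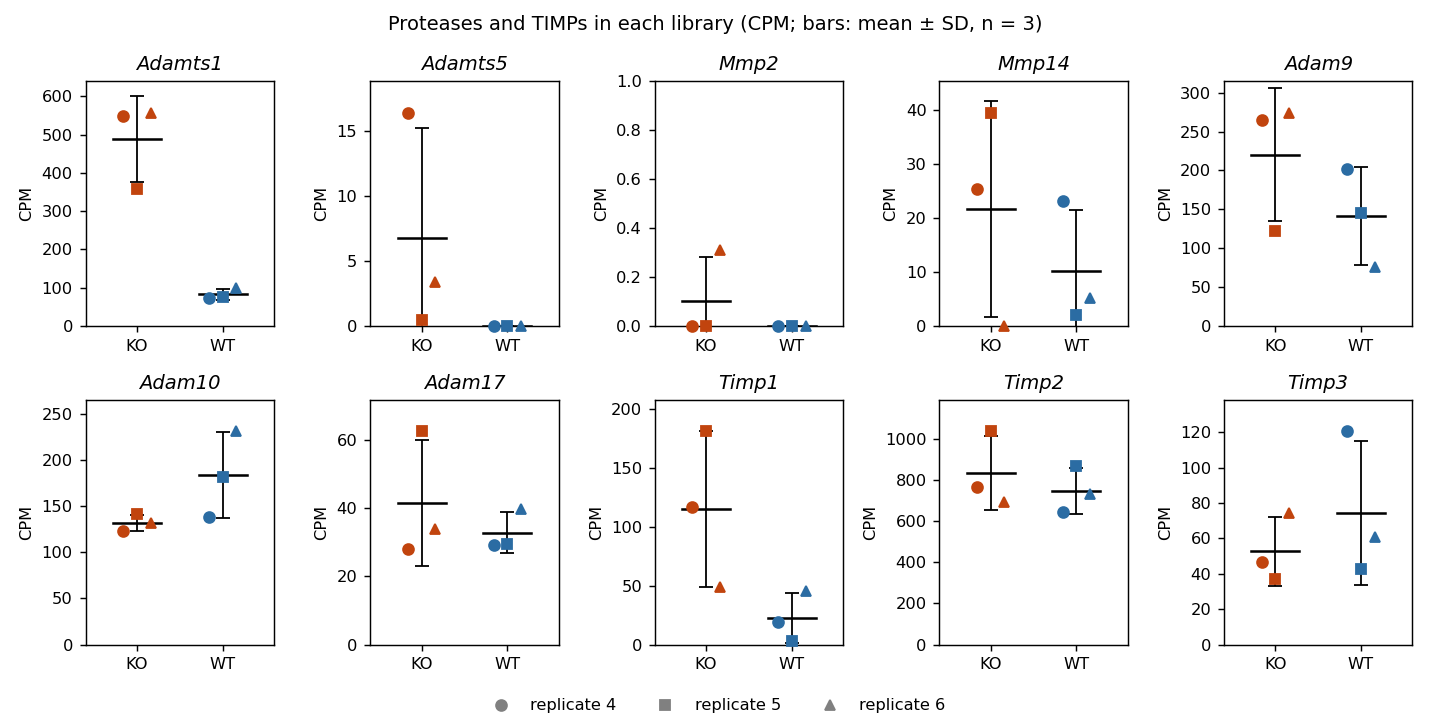
Level of each of the 10 genes in CPM (vertical axes from 0, a scale of its own for each gene) in the 3 KO and 3 WT libraries; symbols give the replicate number, lines the mean and bars the SD, cut at 0. Adamts1 and Timp1 are the tested genes whose KO points all lie above the WT points, and Adamts5 has counts in KO libraries only.

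The matrix metalloproteases, Mmp14 at chr14:54431612-54445364 and Mmp2 at chr8:92827291-92853420, were scarce in both groups. Mmp14, the membrane-anchored collagenase that activates MMP2 with the help of TIMP2, had 25.4, 39.4 and 0 CPM in KO replicates 4, 5 and 6, against 23.1, 1.999 and 5.20 CPM in WT replicates 4, 5 and 6. The groups overlapped, and the KO library with no count was the deepest of the 6, where 3 counts would have been 0.931 CPM. Its log2 fold change of 1.09 ± 2.08 (SE) had a 95% interval of -3.37 to 5.55, wide enough to hold a marked fall as well as a marked rise. Mmp2, the gelatinase that MMP14 activates, had 1 count in KO replicate 6 and none in the other 5 libraries, and no fold can be given.

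The membrane sheddases, Adam9 at chr8:24949611-25016927, Adam10 at chr9:70678997-70780229 and Adam17 at chr12:21323509-21373632, were counted in all 6 libraries, and none had separated groups. Adam9, a sheddase with an adhesive disintegrin domain, had 265, 122 and 274 CPM in KO libraries, against 202, 145 and 75.7 CPM in WT libraries. KO replicate 5 lay below 2 of the WT libraries, and the log2 fold change was 0.64 ± 0.41 (SE, 95% interval -0.23 to 1.51). Adam10, which sheds Notch receptors and cadherins, had 124, 141 and 132 CPM in KO libraries and 138, 182 and 231 CPM in WT libraries. The groups met at KO replicate 5 and WT replicate 4, and the log2 fold change was -0.48 ± 0.33 (SE, 95% interval -1.19 to 0.23). Adam17, the enzyme that releases TNF and ligands of the EGF receptor, had 28.1, 62.5 and 33.8 CPM in KO libraries and 29.2, 29.5 and 39.9 CPM in WT libraries. A single KO library, replicate 5, stood apart from the other 5, and without it the estimate of 0.34 ± 0.82 (SE) became -0.077. Exons of Iah1 on the opposite strand overlap 4.35% of the Adam17 exons, and which strand was counted is not stated. Iah1 had 109, 57.4 and 60.2 CPM in KO libraries and 48.0, 35.5 and 23.7 CPM in WT libraries, without overlap. Its part in the Adam17 counts was not tested.

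The TIMPs lie apart, Timp1 at chrX:20870166-20874735, Timp2 at chr11:118301069-118355740 and Timp3 at chr10:86300372-86349506, and each showed a different picture. Timp1, which inhibits most MMPs and also ADAM10, had 117, 181 and 48.4 CPM in KO replicates 4, 5 and 6, against 18.8, 2.998 and 45.1 CPM in WT replicates 4, 5 and 6. Every KO library lay above every WT library, but the replicates numbered 6 of the 2 groups were only 3.3 CPM apart. The log2 fold change was 2.37 ± 0.79 (SE, 95% interval 0.67 to 4.07), Timp1 was not called, and with 1 library left out the estimate ran from 1.85 to 3.40. Timp2, a broad MMP inhibitor that also takes part in MMP2 activation, had 767, 1038 and 696 CPM in KO libraries and 646, 868 and 736 CPM in WT libraries. The ranges of Timp2 overlapped, though KO replicate 5 lay above every WT library and WT replicate 4 below every KO library, with a log2 fold change of 0.15 ± 0.21 (SE, 95% interval -0.29 to 0.60), the narrowest interval among the 8 tested genes. Timp3, the matrix-bound inhibitor of ADAM17 and of aggrecanases, had 46.4, 36.8 and 74.5 CPM in KO libraries and 120.4, 42.5 and 60.7 CPM in WT libraries. WT replicate 4 held the highest Timp3 value, and without it the estimate of -0.50 ± 0.59 (SE) became 0.03. Of the Timp3 exons 21.3% overlap those of Syn3 on the opposite strand, a gene with no count in any library.

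**Figure D2:**
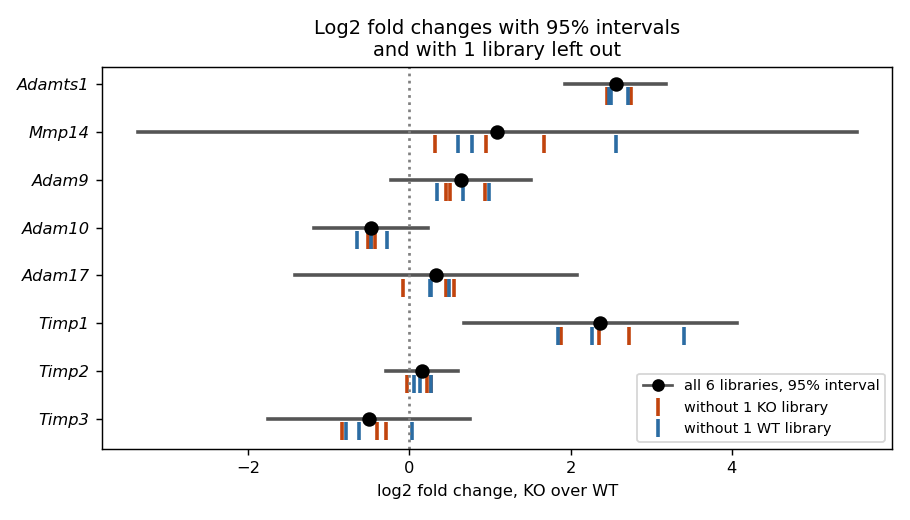
Log2 fold change of KO over WT for the 8 tested genes (horizontal axis), with points and lines for the estimate and 95% interval over all 6 libraries and ticks for the estimates with 1 KO or 1 WT library left out. The Adamts1 ticks stay between 2.45 and 2.75, while those of Mmp14 spread from 0.32 to 2.57.

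Levels of different genes were compared per length, as reads per kilobase of annotated exon at the same scaling (RPKM). Timp2 led in both groups, at 214 ± 46.3 RPKM in KO and 193 ± 28.8 RPKM in WT (SD, n = 3 each). In KO the next were Timp1 at 129.8 RPKM, Adamts1 at 92.1, Adam9 at 53.5 and Adam10 at 26.9 RPKM, whereas in WT they were Adam10 at 37.4, Adam9 at 34.3, Timp1 at 25.1 and Adamts1 at 15.6 RPKM. In KO the ranges of Timp2 and Timp1, and of Timp1 and Adamts1, overlapped, while Adamts1 (67.6 to 105) lay just above Adam9 (29.7 to 66.6). In WT Timp2 (166 to 223) lay above all others, and each of the following 4 genes overlapped its neighbour. Timp3, Adam17 and Mmp14 followed in the same order in both groups, at 6.45, 5.80 and 3.62 RPKM in KO and 9.15, 4.59 and 1.70 RPKM in WT. Adamts5 (0.625 RPKM in KO) and Mmp2 (0.0307 RPKM in KO) came last. These levels divide by the union of annotated exons and move if the cells use shorter transcripts.

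Summed over the 7 proteases, the level was 203, 141 and 204 RPKM in KO libraries and 98.9, 91.2 and 90.7 RPKM in WT libraries. Adamts1 made up 50.2 ± 2.05% of that sum in KO and 16.8 ± 3.51% in WT (SD, n = 3 each). Other counted proteases, such as Mmp10, Mmp11 and Mmp13, are outside this sum, so these shares and ratios hold for the 7 members. The 3 TIMPs summed to 334, 475 and 242 RPKM in KO libraries and 202, 232 and 247 RPKM in WT libraries. Timp2 made up 63.0 ± 9.45% of the TIMP sum in KO and 85.0 ± 10.2% in WT. The TIMP sum was 1.65, 3.36 and 1.19 times the protease sum in KO libraries and 2.04, 2.54 and 2.73 times in WT libraries, ranges that overlapped.

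**Figure D3:**
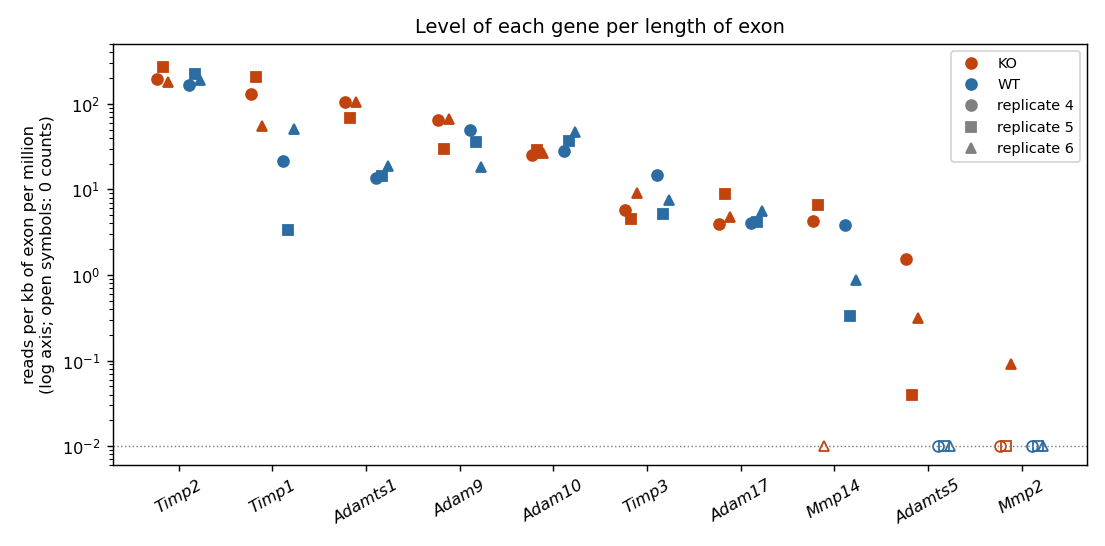
Level per length of exon for each gene (log axis, RPKM), ordered by the mean of both groups, with KO points left of WT points and open symbols for libraries with 0 counts. Timp2 leads in both groups, and Adamts1 holds 67.6 to 105 RPKM in KO and 13.8 to 18.8 RPKM in WT.

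For 7 pairs the ratio of a protease to an inhibitor was taken within each library, on the log2 scale with 2 CPM added to each gene, an addition that weighs most on scarce genes. Adamts1 to Timp3 stood at 3.51, 3.21 and 2.87 in KO libraries and -0.71, 0.81 and 0.69 in WT libraries, without overlap. Adam10 to Timp1 stood at 0.083, -0.35 and 1.41 in KO libraries and 2.75, 5.21 and 2.31 in WT libraries, lower in KO without overlap. Adamts5 to Timp3 was higher in KO without overlap, at -3.07 ± 1.45 in KO and -5.13 ± 0.74 in WT (mean log2 ratio, SD, n = 3 each). The WT values follow from the added 2 CPM alone on the protease side. In KO replicate 5, with 0.428 CPM of Adamts5, the ratio of -4.00 also rests mainly on the added 2 CPM and on Timp3. The lack of overlap is therefore not read as a difference in Adamts5 for that library. Mmp14 to Timp2 (-5.97 ± 2.15 in KO and -6.38 ± 1.56 in WT), Mmp14 to Timp1 (-2.97 ± 1.46 in KO and -0.92 ± 1.58 in WT) and Adam17 to Timp3 (-0.35 ± 0.96 in KO and -1.02 ± 0.83 in WT) overlapped. Mmp2 to Timp2, with Mmp2 close to 0, overlapped too. These ratios reuse the KO and WT values above and are descriptions of them.

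The rest of the ADAMTS, MMP, ADAM and TIMP families was taken from a list of 54 further genes, of which 18 had any count, 14 had at least 10 counts in a library and 9 were tested. None of the 9 passed in edgeR, none had an unadjusted p under 0.05, and neither DESeq2 nor limma-voom called any. Their median log2 fold change was 0.66, where that of all tested genes was -0.02. This list and the partner list below were chosen with earlier results known, so these values are descriptions. Among ADAMTS genes, Adamts9, which cuts versican, had 60.1, 113 and 68.9 CPM in KO libraries and 34.7, 20.0 and 98.9 CPM in WT libraries (log2 fold change 0.66 ± 0.63, SE). Adamts3, a procollagen peptidase, had 32.4, 17.1 and 51.8 CPM in KO libraries and 8.51, 9.49 and 25.4 CPM in WT libraries (1.22 ± 1.31). The groups of both genes overlapped in at least 1 library, as did those of Adamts7 at 28.1 ± 14.9 CPM in KO and 31.2 ± 10.4 CPM in WT (SD, n = 3 each). The protease-like matrix proteins Adamtsl4 and Adamtsl5 were uneven, Adamtsl4 with 0, 18.8 and 15.5 CPM in KO libraries and 0, 8.99 and 0 CPM in WT libraries, and Adamtsl5 with 0, 50.1 and 20.8 CPM in KO libraries and 11.6, 0 and 1.73 CPM in WT libraries.

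Among the secreted MMPs, stromelysin Mmp10 had 17.2, 24.8 and 110.8 CPM in KO libraries and 12.2, 39.5 and 20.2 CPM in WT libraries, with KO replicate 6 apart from the rest. Mmp11, another stromelysin, had 70.6, 94.2 and 79.4 CPM in KO libraries and 97.9, 57.5 and 6.36 CPM in WT libraries. The collagenase Mmp13 had 16.8, 22.7 and 54.9 CPM in KO libraries and 76.6, 67.0 and 26.02 CPM in WT libraries, with a log2 fold change of -0.84 ± 0.77 (SE). All 3 had overlapping groups. Adam15 was the single tested gene of this list without overlap, lower in KO, against 7.93% of all tested genes, at 0, 0 and 7.14 CPM in KO libraries and 9.12, 38.5 and 21.4 CPM in WT libraries. Its log2 fold change of -3.23 ± 2.46 (SE) had a 95% interval of -8.50 to 2.03, and it was not called (edgeR adjusted p = 0.99996). Adamts2 and Mmp28 were counted in WT replicate 4 alone, Adamts14 in WT replicate 5 alone and Adam8 in KO replicate 6 alone, and Adamts10 in 1 library of each group. Timp4 and 35 other genes of the list had no count, which does not exclude a low level.

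**Figure D4:**
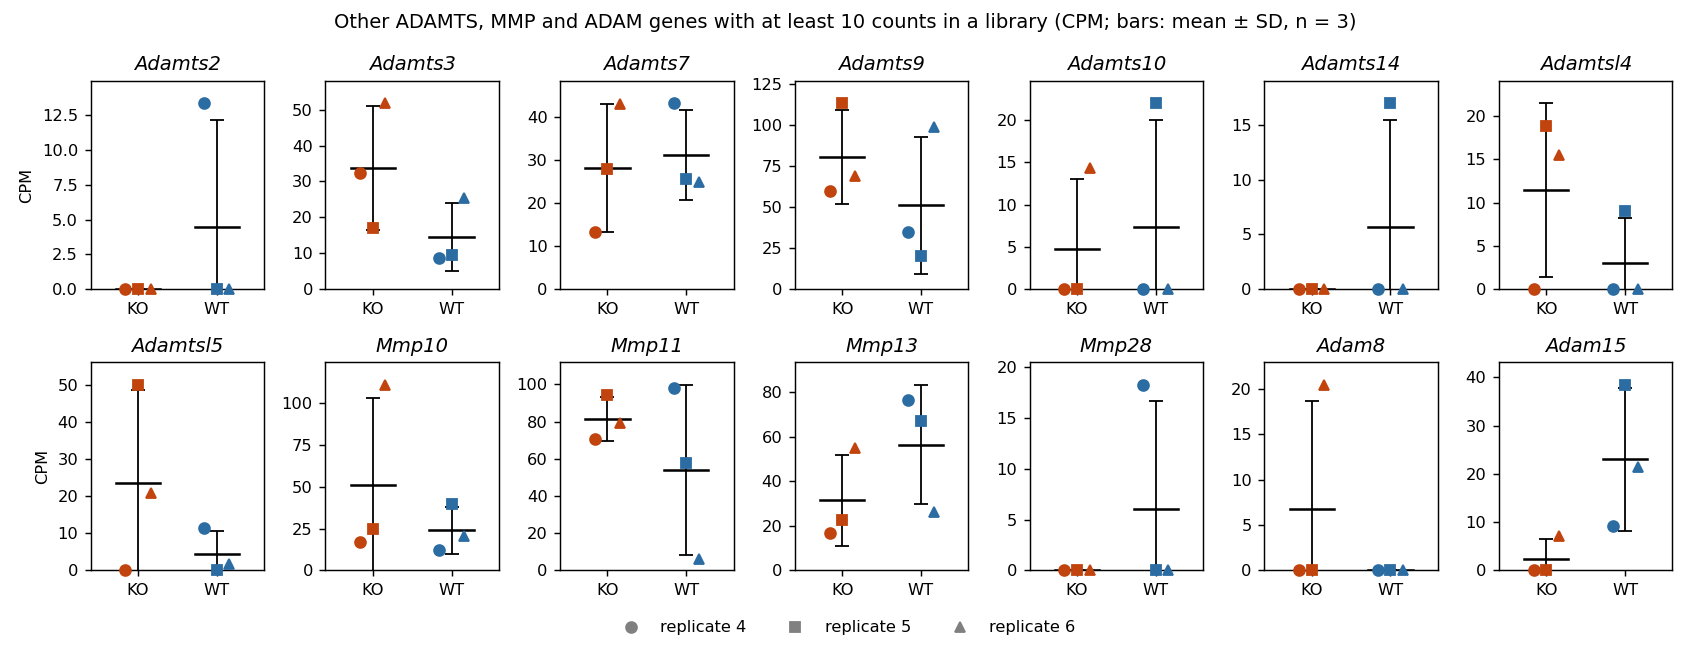
Level in CPM (vertical axes from 0, a scale of its own for each gene) of the 14 further family genes with at least 10 counts in a library; symbols give the replicate number, lines the mean and bars the SD, cut at 0. Adam15 is the tested gene whose KO points all lie under the WT points, and Adamts2, Adamts14, Mmp28 and Adam8 each rest on 1 library.

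Genes that activate, inhibit, carry or clear these proteases were taken from a list of 28, of which 19 were tested. In edgeR 1 was called, higher in KO, while 0.402% of all tested genes were called; that call was lost in limma-voom and without KO replicate 4, WT replicate 5 or WT replicate 6. Plat and Plau, the plasminogen activators that start the plasmin route of protease activation, were not called, with log2 fold changes of -0.09 ± 0.35 and 0.90 ± 1.24 (SE).

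Most partners had estimates near or below 0. The median of the 19 was -0.20, with 5 estimates above 0 and 14 below. Over all tested genes the median was -0.02, with 4021 estimates above 0 and 4179 below. For several partners the SE exceeded the size of the estimate, so its sign is uncertain. Furin, the convertase that removes the prodomain of MMP14 and the ADAMs, had 6.63, 11.6 and 0.310 CPM in KO libraries and 6.69, 12.0 and 49.7 CPM in WT libraries. The inactive rhomboids Rhbdf1 and Rhbdf2 and their partner Frmd8, which bring ADAM17 to the surface, had log2 fold changes of -0.25 ± 1.71, -0.0033 ± 0.72 and 0.0039 ± 0.55 (SE). Lrp1, the receptor that clears MMPs, ADAMTS proteases and TIMPs, had 611, 481 and 824 CPM in KO libraries and 582, 767 and 643 CPM in WT libraries. Bsg, the inducer of MMPs also called EMMPRIN, had 22.6, 154 and 155 CPM in KO libraries and 153, 176 and 232 CPM in WT libraries. Integrin alpha V (Itgav) had a log2 fold change of 0.39 ± 0.25, and integrin beta 3 (Itgb3), lower in KO without overlap, one of -2.70 ± 2.01 (SE). Reck, the membrane inhibitor of MMPs and ADAM10, had no count in any library.

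Substrates of the proteases were counted from 3 lists with 72 genes in all, of which 47 were tested. In edgeR none passed. Unadjusted p-values under 0.05 were found for 12, of which 10 were higher and 2 lower in KO, against 6.49% of all tested genes. DESeq2 called 7 of the 47, 6 higher and 1 lower in KO, where it called 2.97% of the 7970 genes it gave an adjusted p, 1.34% higher and 1.63% lower. Limma-voom called none of the 47 and 0.524% of all tested genes. Without overlap were 14 of 47, or 29.8%, against 14.9% of all tested genes, 12 of them higher and 2 lower in KO. The median log2 fold change of the substrates was 0.34, with 31 estimates above 0. The 3 lists were chosen with earlier results of these data known, so shares here and below are descriptions, with nothing read from them. Of the proteoglycans and other ADAMTS substrates, 6 were tested and 4 had no overlap, 3 higher and 1 lower in KO. The lower gene was Col1a1, which is also counted in the MMP list below. Versican (Vcan), the main ADAMTS1 substrate, had 46.4, 52.7 and 58.9 CPM in KO libraries, against 12.8, 31.0 and 0 CPM in WT libraries. Each KO library lay above each WT library for Vcan, but the uneven WT counts left a log2 fold change of 1.85 ± 1.25 (SE, edgeR adjusted p = 0.99996). Decorin (Dcn) and biglycan (Bgn) were higher without overlap at log2 fold changes of 0.67 ± 0.19 and 0.92 ± 0.27 (SE, edgeR adjusted p = 0.246 and 0.304). Both are among the genes that DESeq2 called. Aggrecan (Acan), the other classic ADAMTS substrate, had no count.

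Of 12 tested matrix substrates of MMPs, 8 had groups without overlap, 6 higher and 2 lower in KO, against 6.94% higher and 7.93% lower of all tested genes. Cd44, the hyaluronan receptor that both MMP14 and ADAM10 cut, had 644, 590 and 690 CPM in KO libraries, against 323, 340 and 332 CPM in WT libraries. That was a log2 fold change of 0.95 ± 0.21 (SE, edgeR adjusted p = 0.0657), and Cd44 passed in DESeq2, without the filter on low counts and with library totals as the scaling, but not in the fit used here. The laminin chain Lamb1 had 289, 235 and 305 CPM in KO libraries and 129.5, 152 and 154 CPM in WT libraries, without overlap, and did not pass in edgeR (adjusted p = 0.363). Fn1, Ccn2 and Col1a1 had log2 fold changes of 1.03 ± 0.25, 1.004 ± 0.29 and -3.44 ± 1.19 (SE, edgeR adjusted p = 0.108, 0.292 and 0.479). DESeq2 also called Lamb1, Fn1, Ccn2 and Col1a1, against 2.97% of the genes it gave an adjusted p. Fn1 and Ccn2 passed without the filter on low counts as well. Col1a1 also makes up most of the fibroblast list in WT libraries, whose part in these values was not tested.

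Of 32 tested substrates shed by ADAM proteases, 21 had estimates above 0 and none passed in edgeR. Without overlap were 4, or 12.5%, all higher in KO. Of all tested genes 14.9% had no overlap in either direction, and 6.94% were higher in KO without overlap. Cd44, also in the MMP list, was among the 4. Among ligands of the EGF receptor family, betacellulin (Btc) had 151, 166 and 114 CPM in KO libraries, against 79.0, 59.5 and 91.3 CPM in WT libraries. All 3 KO values of Btc lay above WT, with a log2 fold change of 0.91 ± 0.40 (SE, edgeR adjusted p = 0.697). Epha2, an ephrin receptor, had 461, 470 and 445 CPM in KO libraries and 210, 223 and 412 CPM in WT libraries, without overlap (0.70 ± 0.28, SE; edgeR adjusted p = 0.565). Efnb2, an ephrin ligand, had 125, 52.7 and 32.6 CPM in KO libraries and 9.12, 10.5 and 34.1 CPM in WT libraries, which overlapped (edgeR adjusted p = 0.657).

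The genes whose log2 CPM followed Adamts1 most closely over the 6 libraries, among 4569 tested genes whose mean log2 CPM was 5 or more, were Lgals1, Cd44, Plxdc2, Stxbp2 and Lamb1. Lgals1 encodes galectin 1, Plxdc2 a membrane protein and Stxbp2 a protein of vesicle fusion. Pearson's r with Adamts1 was 0.992 for Lgals1 and Cd44, 0.990 for Plxdc2, 0.989 for Stxbp2 and 0.988 for Lamb1. The 6 points fall into the KO and WT groups, which such a coefficient mainly reflects, so it is given as a description of likeness only. All 5 were higher in KO without overlap, as were 6.94% of all tested genes, but choice by likeness to Adamts1 favours such genes. Plxdc2 alone among the 5 was called by edgeR, against 0.402% of all tested genes. Stxbp2, for example, had 105, 93.8 and 98.7 CPM in KO libraries and 50.5, 57.5 and 58.4 CPM in WT libraries. Among the other tested members, the coefficient with Adamts1 ran from -0.654 for Adam10 to 0.747 for Timp1.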

How the data were processed

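The authors deposited raw read counts, 1 column a library, without normalization. By the submitters' processing notes, fastp, HISAT2 2.0.5, featureCounts 1.5.0-p3 and build mm10 were used; settings, strand mode and duplicate removal were not stated. Per the labels' protocols, poly(A) RNA was primed with random hexamers. Annotation was GENCODE M21, and promoters came from RefSeq (GRCm38.p6).

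Filtering by filterByExpr (minimum count 10) left 8200 genes, which were TMM-scaled and tested two-sided by edgeR 4.0.16 (robust quasi-likelihood, group as sole term; R 4.3.3), with Benjamini-Hochberg adjustment over those 8200 and a cutoff of 0.05. The SE is the estimate over the square root of F. Alternatives were DESeq2 1.42.0, limma-voom (limma 3.58.1), other scalings and filters, a replicate block and leaving out each library.

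The members and gene lists were chosen with earlier results of these data known. Named were the 10 members, further family genes tested or with 10 counts in a library, called genes and the 4 smallest p-values of each other list, the 5 genes most like Adamts1, genes beside Adamts1 and Adamts5, and Nat10. Plat, Plau, Furin, Rhbdf1, Rhbdf2, Frmd8, Lrp1, Reck, Acan, App, Ltn1, marker genes, overlapping genes and genes named for having no count were named after their values were seen. Some genes that this rule names are not reported here.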

Additional observations from a re-analysis of the deposited data

How the results depend on the processing

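Adamts1 was called in all 13 alternatives (log2 fold change 2.45 to 2.75, adjusted p at most 0.0177), and no further family gene was called in any. These fits reuse the libraries on which the members were selected, so they show dependence on processing and are no further test of a member. Without a filter on low counts and in DESeq2 2 members were called each, Timp1 being the second (adjusted p = 0.0312 and 0.0373); with 1 library left out the count was 1 in every fit. Genes called over the whole table numbered 33 (15 higher, 18 lower), against 43 with library totals (27 higher, 16 lower), 91 without the filter, 237 in DESeq2 and 6 to 29 with 1 library left out. Of the partners 0 were called in limma-voom and 0 to 1 with 1 library left out. Substrates called were 1 with library totals (Cd44), 3 without the filter, 7 in DESeq2 and 0 with any library left out. The cause was not tested. Signs turned for Mmp14 in limma-voom (-0.52), for Adam17 and Timp2 without KO replicate 5 and for Timp3 without WT replicate 4. With 1 library left out, the log2 fold changes ran from -0.077 to 0.55 for Adam17, -0.028 to 0.27 for Timp2 and -0.84 to 0.029 for Timp3. The lowest fold of Adamts5, an alternative chosen after seeing the data, ran from 3.87 to 16.4 with 1 library left out, and its log2 ratio to Timp3 differed by 3.40 with 0.5 CPM added in place of 2 (2.05). Other ratios moved by less than 1 SD. The filter of 1 CPM in 3 libraries, planned as stricter, kept 8635 genes and was not stricter.

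Libraries with the same replicate number deviated from their group means with correlations of -0.0167, -0.00258 and -0.00666. All were under the 0.1 set for pairing, so the libraries were not treated as pairs. A low correlation does not exclude a shared culture or batch. With the replicate block 38 genes and 1 member were called. Mmp2, Adamts5 and Mmp14 rest on 1, 54 and 208 counts over all libraries, and Mmp14 had none in the deepest one.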

Other observations

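Counts were uneven between libraries of 1 group. Of 10580 genes with at least 10 counts in a library, 4808 (45.4%) had at least 10 counts in 1 library and none in another of the same group, and 835 (7.89%) were counted in a single library. Among the 23 members and further family genes at that level, 9 (39.1%) showed such a gap, Mmp14 being the member among them, and 4 were counted in a single library (Adamts2, Adamts14, Mmp28 and Adam8). KO replicate 6 held 462 genes with 1 to 3 counts that no other library counted, against 182 and 199 in KO replicates 4 and 5 and 139 to 164 in the WT libraries. The single count of Mmp2 is 1 of these.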
